A study of Homo sapiens with 49 samples.

Results

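The last step of an ethinyl estradiol (EE) concentration series in Ishikawa cells, from 100 pM to 1000 pM, was examined to ask how far the response was saturated and which target genes might still move. The step compares the 6 arrays labelled 1e-9 M (1000 pM) with the 6 arrays labelled 1e-10 M (100 pM), so 12 of the 49 arrays of the series, taken by their titles and not by any measured value. Ishikawa is an established line from a human uterine epithelial adenocarcinoma. The cells were grown in phenol red-free medium with CSS, exposed for 72 h to EE in 0.1% v/v ethanol with part of the medium renewed daily, and their total RNA was read on Affymetrix HT HG-U133 Plus PM arrays. The vehicle group (6 arrays) had the same ethanol and no EE, and the remaining groups were 0.1 pM (6 arrays), 0.3 pM (7 arrays), 1 pM, 3 pM and 10 pM (6 arrays each).

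EE is the synthetic estrogen of oral contraceptives. Like estradiol it binds the estrogen receptors, nuclear receptors that attach to DNA as dimers at estrogen response elements or through partner factors such as AP-1, and recruit coactivators. In endometrial epithelium the best known target is the progesterone receptor gene, through which estrogen makes the tissue responsive to progestins.

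To keep the choice of genes apart from the step, a target was defined as a gene that changed at least 1.5-fold at 10 pM against vehicle with an adjusted p under 0.05 in limma. The means of that contrast use none of the 12 arrays, although its error is pooled over all arrays and the filter on low values (above a log2 floor of 4 on at least 6 arrays) counts all arrays. On the other 37 arrays alone 31 of the 34 targets would have passed the filter, all but NPPC, EGR3 and ATXN7L1. These entered only through their levels at 100 and 1000 pM, and the summaries over the 34 targets include them. Their means in vehicle and at 10 pM lay under the floor, so their changes at 10 pM are not measured sizes. Of 11075 genes measured, 34 (0.307%) were targets, 29 that rose (0.262%) and 5 that fell (0.0451%) at 10 pM. Without the minimum fold 95 genes (0.858%) changed. The changes at 10 pM ranked PGR and OLFM1 first (log2 2.92 and 2.91), and the lowest that entered were ATXN7L1 (log2 0.61) among those that rose and CGNL1 (log2 -0.61) among those that fell. A gene's step is its mean log2 level at 1000 pM minus that at 100 pM, and a target's step is called forward where it runs in the direction of the gene's own change at 10 pM.

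The sequences just upstream of the 4 targets with the largest forward steps, ANPEP, PIM1, DHRS3 and PGR, are given because these targets led in the fit of all arrays. Without replicate 6 at 1000 pM, whose RNA quality values stand apart, EGR3 takes the place of ANPEP among the first 4. They are the 250 bases before the annotated start, read 5′ to 3′ on the gene's strand, from RefSeq on GRCh38.p14: ANPEP at chr15:89814853-89815102 (minus strand), PIM1 at chr6:37169902-37170151 (plus strand), DHRS3 at chr1:12618211-12618460 (minus strand) and PGR at chr11:101129078-101129327 (minus strand). Capitals mark the letters GGTCA or, on the other strand, TGACC, which form an arm of the estrogen response element.
ANPEP: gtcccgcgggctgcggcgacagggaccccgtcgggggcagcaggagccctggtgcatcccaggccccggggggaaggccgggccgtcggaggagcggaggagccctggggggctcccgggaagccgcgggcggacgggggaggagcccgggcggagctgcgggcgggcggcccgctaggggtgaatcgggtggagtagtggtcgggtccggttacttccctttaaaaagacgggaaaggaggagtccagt
PIM1: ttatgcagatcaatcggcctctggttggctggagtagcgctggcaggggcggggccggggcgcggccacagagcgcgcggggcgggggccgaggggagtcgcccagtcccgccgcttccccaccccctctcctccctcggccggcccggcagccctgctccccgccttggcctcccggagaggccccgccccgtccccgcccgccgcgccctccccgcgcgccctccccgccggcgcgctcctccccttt
DHRS3: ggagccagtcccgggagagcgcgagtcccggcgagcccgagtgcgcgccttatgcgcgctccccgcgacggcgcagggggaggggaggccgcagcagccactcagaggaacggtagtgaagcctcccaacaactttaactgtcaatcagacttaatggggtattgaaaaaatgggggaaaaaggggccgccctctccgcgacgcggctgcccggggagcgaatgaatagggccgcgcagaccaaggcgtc
PGR: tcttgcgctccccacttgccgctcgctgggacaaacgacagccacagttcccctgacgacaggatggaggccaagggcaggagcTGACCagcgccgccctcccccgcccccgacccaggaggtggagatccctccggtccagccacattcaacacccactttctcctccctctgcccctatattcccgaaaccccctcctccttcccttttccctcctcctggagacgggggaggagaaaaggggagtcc
The PGR stretch held the letters once, beginning 166 bases before the start, and the other stretches did not hold them. Promoters of 300 bases (250 before to 50 after the start) were found for 25 of the 34 targets. Searched on both strands, GGTCA occurred in 6 of these 25 (PGR, ALPG, AFF3, G0S2, TGFA and CILP, 24%) against 37.7% of 27305 promoters, and each full estrogen response element contains it. The full element occurred in 0 of 25, against 0.0659% of all promoters. The AP-1 letters TGANTCA occurred in 0 of 25 against 7.76%, and TATAAA in 2 of 25 (NPPC and KCNJ1, 8%) against 12%. These counts describe letters in short windows and say nothing of where the receptor binds.

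Before the values, the quality of the 12 arrays bears on them. Replicate 6 at 1000 pM had a 3′ minus 5′ difference of the beta-actin control probe sets of 2.67 (log2), against 1.05 to 1.78 on the other 11 arrays. Its GAPDH difference was 0.40 against -0.19 to -0.01. Its genes deviated from the group mean with an SD of 0.29 log2, against 0.12 to 0.17 on the other 11, so it stood apart, and steps are given with and without it. The 12 arrays had median log2 values of 2.97 to 3.02 and 38.6% to 39.2% of probe sets above a log2 level of 4, while the level of their poly-A spike-in controls ran from 5.03 to 8.64. Endometrial epithelial markers were all measured (13 of 13), while 4 of 10 stromal, 0 of 7 endothelial and 0 of 9 immune markers passed the filter on low values.

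On the log2 scale, the targets were already near their highest levels at 100 pM. Summed over the 34 targets, the change from vehicle at 100 pM was 92.8% of that at 1000 pM (92.4% for the 29 that rose, 96.6% for the 5 that fell), and 92.8% without replicate 6. The vehicle mean of 9 targets and the 1000 pM mean of 4 others lay at or under the floor, where levels are not measured. With such means set to the floor, a choice made after seeing the data, the summed share was 92.2%. PGR, which encodes the progesterone receptor, had made 56.9% of its 1000 pM change at 10 pM and 93.7% at 100 pM. Over the 21 targets above the floor at both ends the share at 100 pM ran from 81.6% for COL9A3, a collagen IX chain gene, to 112.5% for AFF3. AFF3, a nuclear protein gene of the AF4 family, had a widely spread vehicle level (5.15 ± 0.86). The 34 targets all changed by 10 pM, so the shares leave out genes that responded only at higher concentrations. Of 109 genes called from 10 to 100 pM (adjusted p under 0.05, limma), 25 were targets. The shares are of log2 changes and rest on the same 1000 pM arrays as the steps. How near saturation a target seems depends on that scale. PGR stood 7.56-fold over vehicle at 10 pM, 28.1-fold at 100 pM and 35.1-fold at 1000 pM, so its shares of the fold change are lower. The PGR vehicle mean (4.02 ± 0.57) lay at the edge of the floor, so its folds and shares rest on an uncertain base.

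As a mean over targets, a response score was formed for each array from the signed log2 change of the 34 genes from the vehicle mean. Vehicle arrays scored 0 ± 0.14 (SD, n = 6) by construction of the mean, 1 pM arrays 0.21 ± 0.07, 3 pM arrays 0.52 ± 0.06 and 10 pM arrays 1.05 ± 0.08 (n = 6 each). The 6 arrays at 100 pM scored, from replicate 1 to replicate 6, 1.95, 1.88, 1.94, 1.87, 1.98 and 1.90, a mean of 1.92 ± 0.04. The 6 at 1000 pM scored 2.09, 2.08, 2.09, 1.99, 2.09 and 2.07, a mean of 2.07 ± 0.04. All 6 arrays at 1000 pM lay above all 6 at 100 pM, the closest being replicate 4 at 1.99 and the 100 pM replicate 5 at 1.98. The means differed by 0.15 log2, and by the same 0.15 without replicate 6. Levels under the floor enter the score as deposited. Since the 10 pM arrays chose the targets, their own score is a description.

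**Figure D1:**
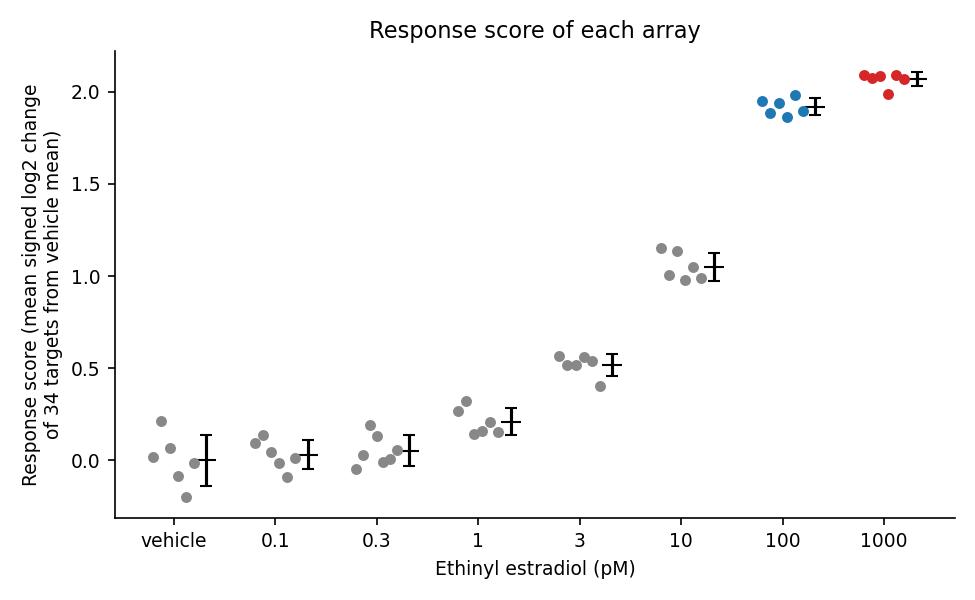
Response score of each array (vertical axis, mean signed log2 change of the 34 targets from the vehicle mean) by EE concentration (horizontal axis, pM), with points for arrays and a bar for the mean and SD of each group. The score stood at 1.05 at 10 pM, 1.92 at 100 pM and 2.07 at 1000 pM, and the 6 arrays at 1000 pM lie just above the 6 at 100 pM.

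Set beside the steps between lower concentrations, the last was small for the targets although it spans as wide a ratio of concentrations as that from 10 to 100 pM. The median forward step of the targets was 0.15 log2 from 0.3 to 1 pM, 0.24 from 1 to 3 pM, 0.42 from 3 to 10 pM and 0.69 from 10 to 100 pM, and then 0.15 from 100 to 1000 pM. Adjacent steps share arrays, and the 10 pM arrays also chose the targets. The count of genes past an adjusted p of 0.05 in limma was 0 from 0.3 to 1 pM and 1 from 1 to 3 pM. It was 17 (0.153%) from 3 to 10 pM and 109 (0.984%) from 10 to 100 pM, of which 83 rose and 26 fell. A count of 0 thus also occurred at a low step, where the response score was far from its highest, and is no mark of saturation by itself.

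From 100 to 1000 pM, 0 of 11075 genes passed (percent called 0) in either direction by limma with Benjamini-Hochberg adjustment, and the smallest adjusted p was 0.748. At an unadjusted p under 0.05 there were 305 genes (2.75%), 177 higher (1.6%) and 128 lower (1.16%) at 1000 pM. Without replicate 6 at 1000 pM, 0 passed and 157 had an unadjusted p under 0.05 (1.42%). The intervals rest on an error pooled over all 8 groups. They bound a step only as far as that error holds for the 12 arrays. The error was 0.21 for PGR and 0.13 for SMIM5 in the fit of all arrays. In a fit of only the 12 arrays it was 0.07 and 0.16. That smaller fit without replicate 6 gave 394 genes with an unadjusted p under 0.05. Whether the pooled error is too wide for this step was not tested. No gene's step reached 1.5-fold (range -0.48 to 0.52 log2), and for 10651 genes (96.2%) the 95% interval lay inside 1.5-fold either way. Among the targets 28 of 34 (82.4%) had such an interval, 23 of the 29 that rose at 10 pM and 5 of the 5 that fell. The 6 whose interval reached past 1.5-fold were PGR, OLFM1, DHRS3, ANPEP, PIM1 and EGR3. Without replicate 6, 29 of 34 lay inside.

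The targets nevertheless leaned forward. The step ran forward in 28 of 34 targets, 24 of the 29 that rose and 4 of the 5 that fell, whereas 3578 of all genes (32.3%) stepped in the direction of their own change at 10 pM. The median forward step was 0.15 log2 (range -0.15 to 0.42) for the targets and -0.04 for all genes. The 95% interval excluded a step of 0 in the forward direction for 10 of 34 targets (1.16% of all genes) and in the backward direction for none. All 6 arrays at 1000 pM lay beyond all 6 at 100 pM in the forward direction for 5 of 34 targets, DHRS3, PIM1, ANO1, HES2 and CILP (0.117% of all genes), and in the backward direction for none. Without replicate 6 the step was forward in 28 of 34 targets with a median of 0.15, against 43.5% and -0.01 for all genes. The interval then excluded 0 for 8 of 34 (0.749% of all genes), and the arrays were apart for 6 of 34 (0.199%), with PGR as the addition. None of these counts tests the list, and no target passed the adjusted threshold (adjusted p 0.981 to 0.987, limma).

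**Figure D2:**
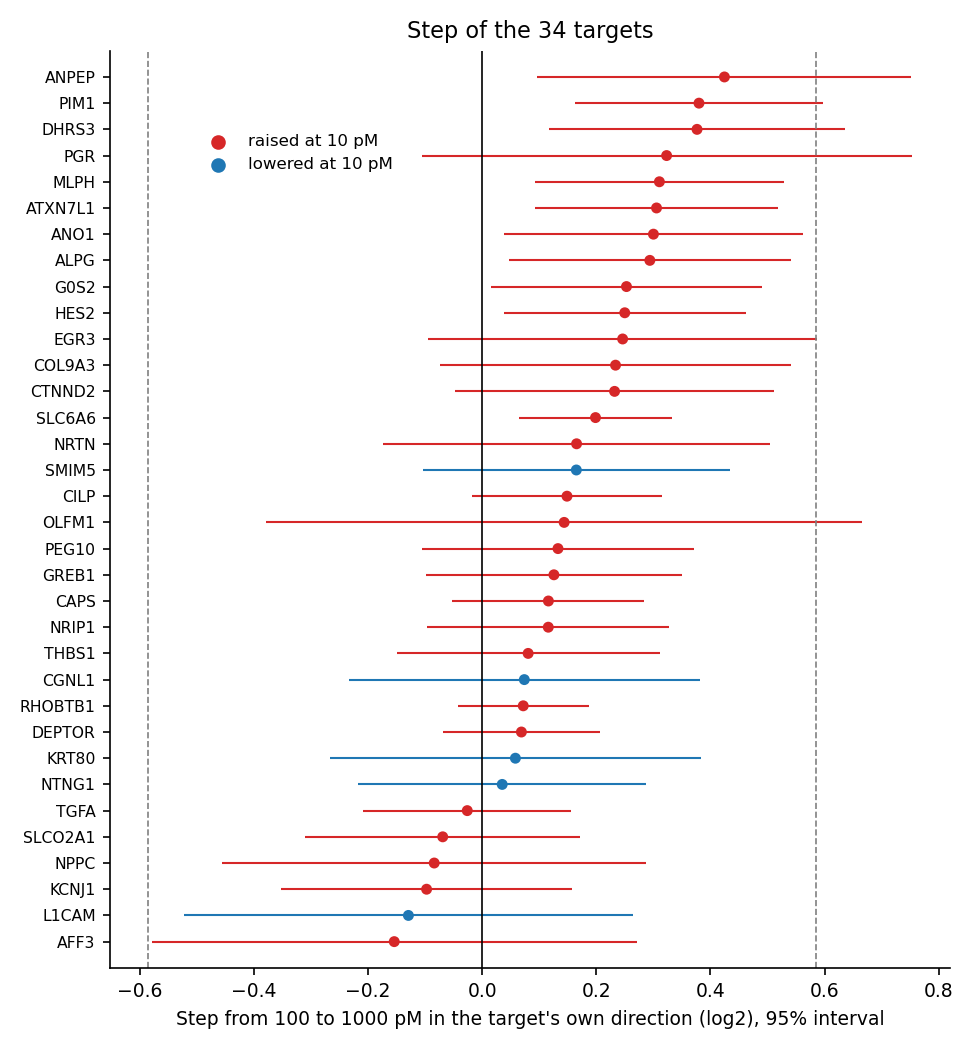
Step from 100 to 1000 pM of each of the 34 targets in the direction of its own change at 10 pM (horizontal axis, log2), with its 95% interval from limma as a line, the 29 targets raised at 10 pM in red and the 5 lowered in blue. Dashed lines mark 1.5-fold, which no step reaches, and 28 points lie to the right of 0.

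Across all genes, the step and the change at 10 pM ran against each other, with Pearson's r of -0.35 over 11075 genes. Without replicate 6 at 1000 pM the r was -0.09, and 43.5% of genes stepped in their own direction. Without the 4 arrays of the series with a high 3′ minus 5′ difference (replicate 6 at 1000 pM, vehicle replicate 5, 0.3 pM replicate 2 and 3 pM replicate 6) the r was 0.08, with 47.2% of genes in their own direction. The targets gave 28 of 34 forward steps in each of these fits. Genes share arrays and are no independent replicates, so these are descriptions.

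**Figure D3:**
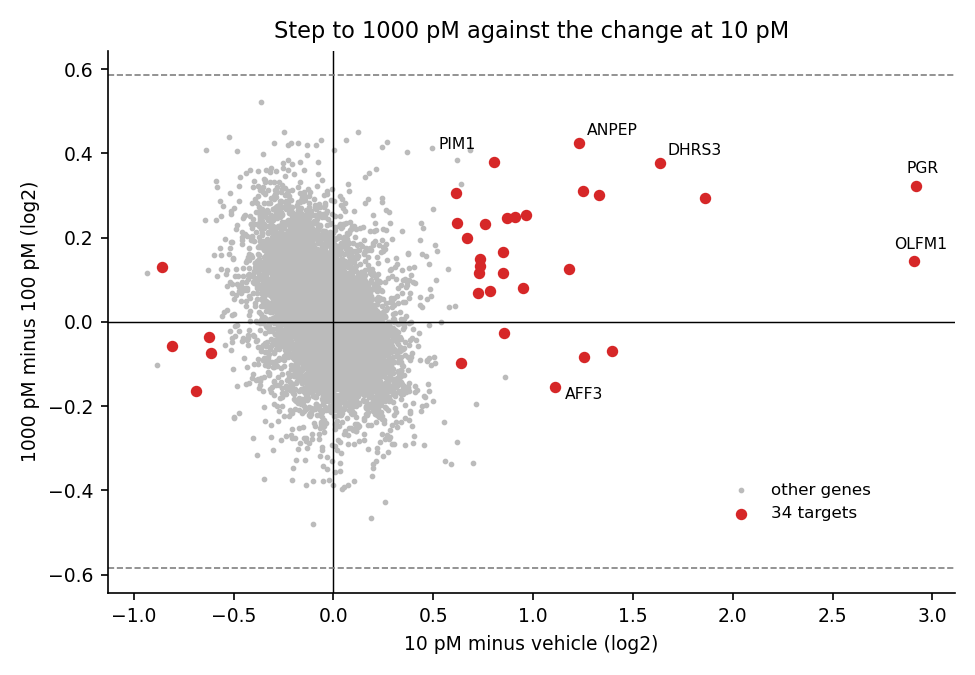
Step from 100 to 1000 pM (vertical axis, log2) against the change from vehicle at 10 pM (horizontal axis, log2) for 11075 genes, in grey, and the 34 targets, in red. Targets that rose at 10 pM lie mostly above 0 and dashed lines mark 1.5-fold, while the grey cloud slopes the other way (r of -0.35, and -0.09 without replicate 6).

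PGR was the target with the largest change from vehicle. Its level rose from 4.02 ± 0.57 in vehicle to 6.94 ± 0.24 at 10 pM (log2, mean ± SD, n = 6). At 100 pM its 6 arrays read 8.78, 8.84, 8.89, 8.87, 8.88 and 8.73, a mean of 8.83 ± 0.06. At 1000 pM they read 9.37, 9.13, 9.19, 9.11, 9.30 and 8.82, a mean of 9.15 ± 0.19. The first 5 arrays at 1000 pM were above every array at 100 pM, and replicate 6 lay within their range. In the fit of all 49 arrays the step was 0.32 ± 0.21 (SE, 95% interval -0.11 to 0.75), and 0.39 ± 0.22 without replicate 6. That error is pooled over 8 groups, and PGR varied most in vehicle, where it lies near the floor. In a fit of only the 12 arrays the step was 0.32 ± 0.07 (interval 0.17 to 0.48, adjusted p 0.741 by limma). In the same fit without replicate 6, chosen after seeing the data, the step was 0.39 ± 0.05 with an adjusted p of 0.00606, the only gene of 11075 called (0.00903%). Another, dimmer PGR probe set stepped by 0.28 ± 0.14, from 4.58 to 4.86. So whether PGR is called rests on which arrays enter and on the fit.

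OLFM1, which encodes the secreted glycoprotein olfactomedin 1, had the next largest change at 10 pM, from 4.76 ± 0.73 in vehicle to 7.67 ± 0.25. Its arrays read 9.08, 8.98, 8.86, 8.81, 9.08 and 8.71 at 100 pM and 9.17, 9.25, 9.04, 8.87, 9.30 and 8.72 at 1000 pM. The groups overlapped, and replicate 6 was the lowest array of both. The step was 0.14 ± 0.26 (interval -0.38 to 0.67) in the fit of all arrays and 0.21 ± 0.27 without replicate 6, and its other probe set stepped by 0.18 ± 0.23. In the fit of only the 12 arrays the step was 0.14 ± 0.09, so the wide interval came with the spread of the other groups.

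GREB1, an estrogen receptor cofactor that is itself a classic target, read 7.67, 7.48, 7.73, 7.68, 7.60 and 7.62 at 100 pM and 7.70, 7.68, 7.86, 7.59, 7.80 and 7.89 at 1000 pM. The groups overlapped, with a step of 0.13 ± 0.11 (interval -0.10 to 0.35), which keeps it inside 1.5-fold, and 0.10 ± 0.12 without replicate 6. NRIP1, a corepressor of nuclear receptors, stepped by 0.12 ± 0.11 from 8.98 ± 0.08 to 9.09 ± 0.14, or by 0.16 ± 0.11 without replicate 6. TGFA, a ligand of the EGF receptor, had nearly the same level, with 10.28 ± 0.09 at 100 pM and 10.25 ± 0.12 at 1000 pM (step -0.03 ± 0.09, or -0.02 ± 0.10 without replicate 6). EGR3, an immediate early transcription factor gene, stepped by 0.25 ± 0.17 with all arrays and 0.36 ± 0.17 without replicate 6, whose reading of 5.05 was the lowest of that group. In vehicle and at 10 pM its means (2.42 and 3.29) lay under the floor, so its change from vehicle is not measured.

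Forward steps larger than that of PGR were those of DHRS3, PIM1 and ANPEP. DHRS3, which encodes a retinal reductase, read 6.89, 6.77, 6.72, 6.89, 6.86 and 6.60 at 100 pM and 7.17, 7.07, 7.12, 7.24, 7.04 and 7.34 at 1000 pM. The groups did not overlap, and the step was 0.38 ± 0.13 (interval 0.12 to 0.64), or 0.34 ± 0.14 without replicate 6. Its vehicle mean of 3.33 lay under the floor, so no share of its change from vehicle is given. PIM1, a serine/threonine kinase gene, read 5.42, 5.64, 6.01, 5.91, 5.72 and 5.90 at 100 pM and 6.03, 6.12, 6.18, 6.16, 6.07 and 6.33 at 1000 pM. Its groups were apart by a narrow margin, with a step of 0.38 ± 0.11 (interval 0.16 to 0.60), or 0.34 ± 0.11 without replicate 6.

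ANPEP, which encodes aminopeptidase N, read 6.71, 6.57, 6.86, 6.86, 6.52 and 6.89 at 100 pM and 6.86, 7.00, 6.92, 7.16, 7.01 and 8.02 at 1000 pM. Replicate 6 stood far above the rest and replicate 1 lay within the 100 pM range. The step of 0.42 ± 0.16 (1.34-fold), the largest of the 34, was 0.25 ± 0.15 without replicate 6. That array decides ANPEP's rank among the targets, and the part of its high 3′ minus 5′ difference in the reading was not tested.

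**Figure D4:**
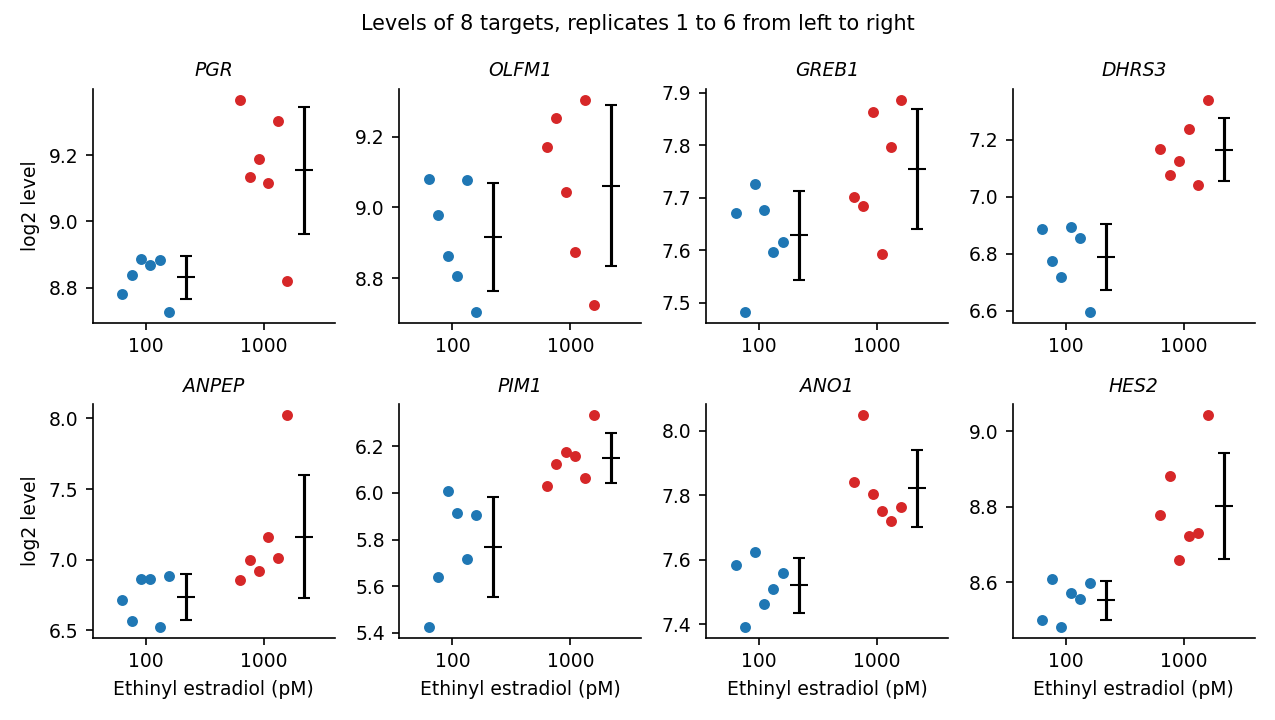
Log2 level (vertical axis) of 8 targets on each array at 100 pM (blue) and 1000 pM (red), with replicates 1 to 6 from left to right in each group and a bar for the mean and SD. DHRS3, PIM1, ANO1 and HES2 show groups that do not overlap, PGR does so apart from replicate 6 at 8.82, and ANPEP has replicate 6 at 8.02.

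Among the other targets with groups apart, ANO1, a calcium-activated chloride channel gene, read 7.39 to 7.62 at 100 pM (7.52 ± 0.09) and 7.72 to 8.05 at 1000 pM (7.82 ± 0.12), a step of 0.30 ± 0.13, or 0.31 ± 0.14 without replicate 6. HES2, a transcriptional repressor gene of the hairy/enhancer of split family, had a mean of 8.55 ± 0.05 at 100 pM and 8.80 ± 0.14 at 1000 pM, a step of 0.25 ± 0.11, or 0.20 ± 0.11 without replicate 6. CILP, an extracellular matrix protein gene of cartilage, stepped by only 0.15 ± 0.08 (0.16 ± 0.09 without replicate 6), from 7.79 ± 0.08 to 7.94 ± 0.05, yet its lowest array at 1000 pM (7.88) was above its highest at 100 pM (7.86). Small, even steps of this kind have tight groups and stay well inside 1.5-fold. SLC6A6, the taurine transporter gene, was nearly apart: its arrays read 9.25, 9.23, 9.31, 9.26, 9.41 and 9.22 at 100 pM and 9.53, 9.38, 9.50, 9.53, 9.57 and 9.36 at 1000 pM. Its step was 0.20 ± 0.07 (interval 0.07 to 0.33), and 0.22 ± 0.07 without replicate 6.

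MLPH, which encodes melanophilin, a linker of melanosomes to myosin, stepped by 0.31 ± 0.11, from 6.82 ± 0.20 to 7.13 ± 0.15. ATXN7L1 stepped by 0.31 ± 0.11, from 4.86 ± 0.20 to 5.16 ± 0.16, and G0S2, an inhibitor of triglyceride lipase, by 0.25 ± 0.12. Without replicate 6 these steps were 0.28 ± 0.11, 0.30 ± 0.11 and 0.27 ± 0.12. These 3 groups overlapped, and the intervals excluded 0. For ATXN7L1 the means in vehicle and at 10 pM (3.27 and 3.89) lay under the floor, so its change at 10 pM is not measured. ALPG, a placental-type alkaline phosphatase gene, stepped by 0.29 ± 0.12 and by 0.24 ± 0.13 without replicate 6. Its paralog ALPP lay under the floor at 3.03 ± 0.08 and 3.40 ± 0.34, and probes for these near-identical genes may share signal.

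The 5 up-targets with a backward step were AFF3, KCNJ1, NPPC, SLCO2A1 and TGFA. AFF3 had the largest, -0.15 ± 0.21 (interval -0.58 to 0.27), from 6.54 ± 0.18 to 6.38 ± 0.29. It had made 90.0% of its 1000 pM change at 10 pM, a share that rests on a widely spread vehicle level (5.15 ± 0.86). Its step was -0.06 ± 0.22 without replicate 6. SLCO2A1, the prostaglandin transporter gene, stepped by -0.07 ± 0.12, or by -0.09 ± 0.13 without replicate 6. NPPC, which encodes C-type natriuretic peptide, stepped by -0.08 ± 0.18 with all arrays and 0.09 ± 0.18 without replicate 6, whose 4.34 was its lowest reading at 1000 pM. The NPPC means in vehicle and at 10 pM (2.18 and 3.43) lay under the floor, so its change at 10 pM is not measured. No backward step had an interval that excluded 0.

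The remaining up-targets, among them THBS1, NRTN, CAPS, CTNND2, PEG10, DEPTOR and COL9A3, stepped forward by 0.07 to 0.23 with intervals that included 0. DEPTOR, an inhibitor of mTOR signalling, had a narrow interval, at 0.07 ± 0.07 (interval -0.07 to 0.21). THBS1, the matrix glycoprotein thrombospondin 1, moved from 10.61 ± 0.20 to 10.69 ± 0.09.

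Of the targets that fell at 10 pM, 4 stepped further down by small amounts: SMIM5 by -0.17 ± 0.13, CGNL1 (a junction protein gene) by -0.07 ± 0.15, KRT80 (a keratin gene) by -0.06 ± 0.16 and NTNG1 (netrin G1) by -0.04 ± 0.13. Without replicate 6 these steps were -0.08 ± 0.14, -0.09 ± 0.16, -0.13 ± 0.17 and 0.04 ± 0.13. L1CAM, a neural cell adhesion gene, stepped up by 0.13 ± 0.20, and 6 of 6 of its arrays at both concentrations lay at or under the log2 floor of 4, so no level is measured there. SMIM5 was at or under the floor on 5 of 6 arrays of each group. For the targets that fell, the floor limits how much further movement the arrays can show.

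Outside the targets no gene passed either, and the following values are therefore of genes that did not pass. The smallest p-values belonged to ALPK2, an alpha kinase gene (-0.48 ± 0.11, from 4.20 ± 0.17 to 3.72 ± 0.28, with 5 of 6 arrays at or under the floor at 1000 pM), ASRGL1, an asparaginase-like gene of endometrial epithelium (0.21 ± 0.05, or 0.19 without replicate 6), and CEBPD, a transcription factor gene (0.26 ± 0.07, or 0.25). The 6 arrays at 1000 pM were wholly above the 6 at 100 pM for 14 genes (0.126%) and wholly below for 16 (0.144%). Beside the targets the largest steps among these were MGAT3, a glycosyltransferase gene (0.42 ± 0.15), GGT7 (0.38 ± 0.13) and MFAP3L (0.28 ± 0.09) upward, and PSD3 (-0.46 ± 0.13), SNORD89 (-0.30 ± 0.12), ZNF19 (-0.29 ± 0.09), DPYD (-0.29 ± 0.14), MCTP2 (-0.24 ± 0.12) and GEN1 (-0.22 ± 0.08) downward. Without replicate 6 the 9 steps kept their signs and were 0.39, 0.31, 0.31, -0.42, -0.32, -0.27, -0.26, -0.22 and -0.21 in the same order. Other probe sets of PSD3 and MCTP2 stepped by only -0.12 and -0.07, and GGT7 lay at or under the floor on 3 of 6 arrays at 100 pM.

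MFAP3L had the highest level of the 3 that stood above. It read 7.22, 7.32, 7.47, 7.48, 7.24 and 7.39 at 100 pM and 7.74, 7.68, 7.70, 7.62, 7.54 and 7.49 at 1000 pM, against 6.90 ± 0.23 in vehicle and 6.94 ± 0.14 at 10 pM. At 100 pM it had made 62.0% of its 1000 pM change. MGAT3 read between 3.98 and 4.32 at 100 pM and between 4.40 and 4.71 at 1000 pM, against 4.05 ± 0.29 in vehicle, so it had made 14.4% of its 1000 pM change at 100 pM. Among the targets the lowest such share was 81.6%, but these genes, unlike the targets, were picked for the size of this very step, which lowers the share. Several of those that stood below had a 1000 pM mean near the vehicle mean. ZNF19 read 5.40 ± 0.27 in vehicle, 5.41 ± 0.18 at 10 pM, 5.69 ± 0.11 at 100 pM and 5.39 ± 0.12 at 1000 pM. Since these genes were picked for 100 pM levels above those at 1000 pM, the pattern cannot show whether they rise and return with concentration. That was not tested.

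**Figure D5:**
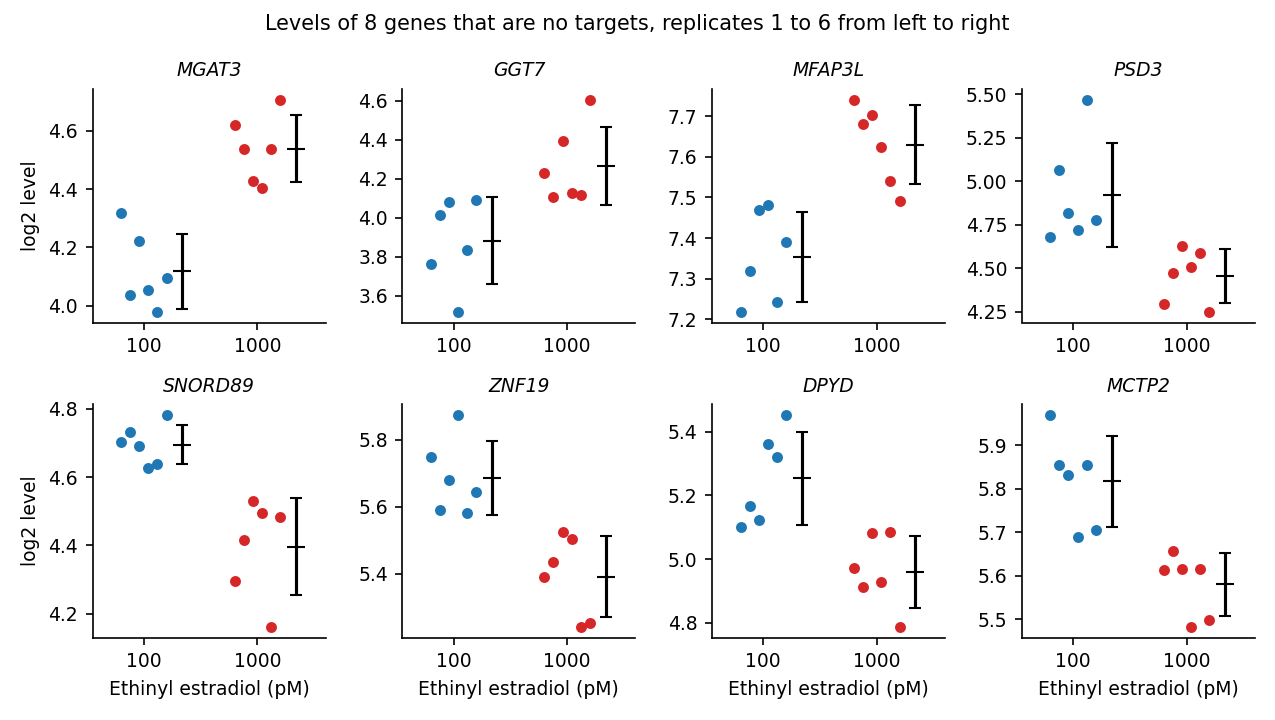
Log2 level (vertical axis) on each array at 100 pM (blue) and 1000 pM (red) of 8 genes that are no targets and whose groups do not overlap, with replicates 1 to 6 from left to right and a bar for the mean and SD. MGAT3, GGT7 and MFAP3L are higher at 1000 pM and PSD3, SNORD89, ZNF19, DPYD and MCTP2 lower, and none passed the adjusted threshold.

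When ranked without replicate 6 at 1000 pM among genes with an unadjusted p under 0.05 there, the largest steps up were ST8SIA4 (0.57 ± 0.16), TPGS1 (0.51 ± 0.18), MSMB (0.46 ± 0.13), RBM24 (0.44 ± 0.17), EVI5L (0.41 ± 0.17) and DIRAS3 (0.39 ± 0.17). The largest steps down were ALPK2 (-0.44 ± 0.12), ZNF253 (-0.44 ± 0.13), PSD3 (-0.42 ± 0.14), GRIP1 (-0.38 ± 0.13), MATN1-AS1 (-0.38 ± 0.14) and CLHC1 (-0.36 ± 0.17). Of these, ZNF253 and MATN1-AS1 lay at or under the floor on 6 of 6 arrays at 1000 pM and EVI5L on 6 of 6 at 100 pM. Their steps and ranks are therefore not measured sizes. At 100 pM TPGS1 lay there on 3 of 6 arrays and ST8SIA4 on 4 of 6, and at 1000 pM CLHC1 on 4 of 6. RBM24 did so on 2 of 6 arrays of each group, so the sizes of these steps are uncertain as well. Another probe set of ZNF253 stepped by -0.07. MSMB, RBM24, ST8SIA4 and DIRAS3 also lay above vehicle at 1000 pM. MSMB, the gene of the secreted protein beta-microseminoprotein, read 2.00 ± 0.14 in vehicle, 3.76 ± 0.30 at 100 pM and 4.17 ± 0.14 at 1000 pM, with 4 of 6 arrays at or under the floor at 100 pM and 1 of 6 at 1000 pM. ST8SIA4, a sialyltransferase gene, read 4.42 to 4.94 on replicates 1 to 4 at 1000 pM but 3.78 and 3.63 on replicates 5 and 6, against 3.64 to 4.12 at 100 pM, and its other probe sets stepped by 0.19 and -0.03.

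The receptor's own gene had nearly the same level at both concentrations. ESR1, the gene of estrogen receptor alpha, read 8.22 ± 0.08 at 100 pM and 8.29 ± 0.08 at 1000 pM (step 0.07 ± 0.05, interval -0.03 to 0.16), and 8.24 ± 0.08 in vehicle. The 6 probe sets of ESR2, the gene of estrogen receptor beta, lay between 1.73 and 2.79 on these arrays, under the floor. Of 16 measured genes of receptors and coregulators 0 passed, with a median step of 0.05 log2. Largest in size were the receptor cofactor gene PELP1 (0.26 ± 0.17, or 0.12 without replicate 6), the arginine methyltransferase gene CARM1 (0.22 ± 0.18, or 0.09) and the pioneer factor gene FOXA1 (-0.16 ± 0.11, or -0.10).

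Estrogen-responsive genes, a list that includes PGR, OLFM1, GREB1, MLPH and ALPG, gave 0 of 27 calls. The median step was 0.08 log2 with 19 of 27 steps above 0, against a median of 0.00 and 50.7% above 0 for all genes. The list partly repeats the target result, since 8 of these 27 genes are targets. Beside them ELF3, an epithelial transcription factor gene, stepped by 0.31 ± 0.17, CTSD, the cathepsin D gene, by 0.28 ± 0.25 and AGR2, a disulfide isomerase gene, by -0.19 ± 0.09. Without replicate 6 these steps shrank to 0.23, 0.12 and -0.11, and the list's median to 0.05. ELF3 and CTSD lay below vehicle at 1000 pM (log2 -0.40 and -0.31), so their steps were no continuation of a rise.

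Progestin-responsive and receptive endometrium genes gave 0 of 18 calls with a median of 0.05, or 0.03 without replicate 6. The secretoglobin genes SCGB2A1 (0.41 ± 0.21, from 7.40 ± 0.33 to 7.81 ± 0.30) and SCGB1D2 (0.29 ± 0.16) had the largest steps, and both lay above vehicle at 1000 pM (log2 2.34 and 1.12). SOX17, a transcription factor gene of endometrial epithelium, stepped by 0.14 ± 0.07, and ITGB3, an integrin subunit gene, by -0.25 ± 0.18. Without replicate 6 these steps were 0.39, 0.28, 0.14 and -0.15. SCGB2A1 was called in an alternative fit, with its value among the alternatives.

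The other lists were flat. Over all 19 lists 0 of the measured genes passed, and the list medians ran from -0.04 for TGF-beta and contractile genes (22 measured, with CCN2 at -0.28 ± 0.18 and ACTA2 at -0.23 ± 0.16) to the 0.08 of the estrogen-responsive genes. Without replicate 6 the same lists gave the lowest and highest medians, -0.03 and 0.05, and CCN2 and ACTA2 stepped by -0.23 and -0.28. Cell cycle genes (35 measured) had a median of 0.00, with 35 of 35 intervals inside 1.5-fold, and CDK6, a cyclin-dependent kinase gene, at -0.17 ± 0.05. DNA replication genes (32 measured) had a median of 0.01 and 30 of 32 intervals inside. Among enzymes that make or inactivate steroids (20 measured) the median was 0.00, with the cytochrome P450 reductase gene POR at 0.21 ± 0.22 (0.04 without replicate 6) and the xenobiotic-metabolising CYP3A4 at -0.12 ± 0.09 (-0.17). Xenobiotic receptors and their targets (14 measured, median 0.01), other steroid hormone receptors and targets (12, median 0.02) and growth factor genes (22, median 0.00) were as flat. The median of every list was under 0.1 log2 in size.

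Stress genes had small median steps, and none passed. Heat shock genes (13 measured) had a median of 0.00, unfolded protein response genes (19) -0.03, NRF2 genes (12) 0.01, p53 target genes (18) 0.01, immediate early genes (19) 0.00 and interferon response genes (9) 0.03. Hypoxia and glycolysis genes (25) had a median of 0.04 with 21 of 25 steps above 0, and cholesterol and fatty acid synthesis genes (20) one of 0.02. Single members stood out in size, with BBC3, a p53-induced pro-apoptotic gene, at 0.38 ± 0.13, FASN, the fatty acid synthase gene, at 0.37 ± 0.20, HMOX1, the heme oxygenase gene, at 0.29 ± 0.13, EGLN3, a prolyl hydroxylase gene, at 0.28 ± 0.13 and the small heat shock gene HSPB1 at 0.22 ± 0.09. Without replicate 6 these were 0.34, 0.29, 0.31, 0.32 and 0.20. BBC3, HMOX1 and EGLN3 lay close to the floor. PLK2, a polo-like kinase gene, stood wholly below (-0.17 ± 0.05, from 9.51 ± 0.09 to 9.33 ± 0.03). Reference genes (11 measured) had a median of 0.01 and 11 of 11 intervals inside 1.5-fold.

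Markers of endometrial epithelium had a median step of 0.05, with 11 of 13 above 0. Their summed level ran from 13.45 to 13.54 log2 at 100 pM and from 13.50 to 13.57 at 1000 pM. The measured stromal markers (COL1A1, COL1A2, COL3A1 and FBN1) summed to 9.43 to 9.73 at 100 pM and 9.47 to 9.72 at 1000 pM. Ishikawa is an epithelial line, so the levels of these stromal-type genes describe the line's own RNA and count no stromal cells. In bulk RNA, fewer cells that express a gene and less RNA per cell cannot be told apart.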

How the data were processed

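The deposited log2 expression levels of 49 arrays were used; the authors made them with GCRMA and Partek (versions not given), per the submitters' processing notes. GCRMA compresses dim signals, and the number of arrays limits precision. Of 54715 probe sets, 40920 had 1 gene symbol in the platform annotation, 864 several and 12931 none. Of the first, 40864 were matched to RefSeq (GRCh38.p14) and 0 symbols were updated. Probe sets above log2 4 on at least 6 arrays entered (22721, of which 2925 without a single symbol and, in all, 102 control probe sets were left out of gene tests). The brightest stood for its gene, giving 11075 genes. The means of the 8 groups were estimated in R 4.3.3 by limma 3.58.1, with an intensity trend and 41 residual degrees of freedom, with Benjamini-Hochberg adjustment over all genes (threshold 0.05) and 95% intervals. Figures used Python 3.11.15, pandas 2.3.3 and matplotlib 3.10.9. Separate cultures are not named in the labels, and the p-values therefore reflect the scatter among these arrays alone, possibly technical.

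The members, targets and lists were chosen with earlier results of these data known. Named genes were those called (none), the 6 largest steps each way among genes with groups apart and, ranked separately, among genes with an unadjusted p under 0.05 without replicate 6, the 12 largest rises and 8 largest falls among targets at 10 pM, the targets with the largest forward steps, PGR, GREB1, OLFM1, ESR1, ESR2, ALPP and ALPG, and up to 4 members a list with the largest steps. The other targets, ASRGL1, CEBPD, PLK2 and genes called under an alternative were named after their values were seen. The fit was tested on simulated data with errors independent between arrays, and its power for small steps is not reported here. Alternatives changed the arrays, filter, normalization, variance prior, weights, covariates, replicate block, probe sets, threshold and target rule. Replicate numbers were not taken to pair the arrays, since 4 and not all of the 6 same-numbered correlations exceeded 0.1. No date or batch is given in the sources used here.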

Additional observations from a re-analysis of the deposited data

Results flagged for a closer look

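Within each group of 6 arrays, the control probe set differences, the response score and the levels of the genes named were examined for a single array far from the rest, and 13 of 200 such groups were flagged, 8 of them through replicate 6 at 1000 pM. Chance alone flags about 1 in 20 groups. Replicate 6 at 1000 pM had a GAPDH 3′ minus 5′ difference of 0.40 (nearest array -0.05). It read 8.02 for ANPEP (nearest 7.16), 9.95 for CKB (9.37), 6.29 for PELP1 (5.59), 6.79 for POR (5.94), 7.42 for CARM1 (6.69) and 4.57 for CYP3A4 (4.30), each the highest of its group, and 6.71 for FAS (7.22), the lowest.

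Among the other arrays at 1000 pM, replicate 4 had the lowest response score, 1.99 (nearest 2.07), and the lowest COL9A3 level, 6.17 (6.77). Replicate 2 had the highest ANO1 level, 8.05 (7.84), and replicate 5 the lowest SMR3B level, 6.74 (7.27). At 100 pM, replicate 5 had the highest SMIM5 level, 4.30 (3.84), the only one of its group above the floor of 4.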

How the results depend on the processing

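The count of 0 genes called held under 30 of 32 alternatives. In the fit of only the 12 arrays without 1000 pM replicate 6, added after seeing the data, 1 gene was called (PGR). With the replicate number as a block in that fit (replicate block), 5 were called (0.0451%): PGR 0.37 ± 0.05, CKB 0.30 ± 0.04 and SCGB2A1 0.42 ± 0.06 (adjusted p 0.00941 each, limma), NHERF1 0.36 ± 0.06 (0.048) and SMR3B -0.37 ± 0.06 (0.0359). In the main fit their steps were 0.32, 0.42, 0.41, 0.45 and -0.36. The block called 0 with replicate 6 (1051 genes at an unadjusted p under 0.05) and 0 over all groups. Same-numbered arrays correlated at -0.03 to 0.50, and 8 of 12 arrays correlated best with their own number, a hint from the data and not the design. Replicates 1 and 2 did not, so the block values depend on that numbering.

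Leaving out each of the 12 arrays in turn gave 0 to 0 calls, a median forward step of 0.124 to 0.167, 26 to 29 forward targets, 70.6% to 85.3% of intervals inside 1.5-fold, a response at 100 pM of 92.1% to 93.3% and a score difference of 0.138 to 0.165. Targets drawn from 3 and 10 pM against vehicle, 0.1 and 0.3 pM gave a median of 0.208 with 14 of 18 forward. Without a minimum fold the median was 0.0688, with 68 of 95 forward and a score difference of 0.0856. At 2-fold or more the median was 0.294, with 8 of 11 forward and 63.6% of intervals inside.

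The sign turned for 6 of 97 genes followed, none past the threshold. Leaving out each of the 12 arrays in turn gave steps of -0.144 to 0.00103 for SLCO2A1, -0.171 to 0.0062 for CGNL1, -0.105 to 0.0403 for NTNG1, -0.134 to 0.00606 for KRT80, -0.057 to 0.00425 for TGFA and -0.169 to 0.0888 for NPPC. Without the 4 arrays of high 3′ minus 5′ difference, and in the fit of the 12 arrays without replicate 6, NTNG1 gave 0.0361 and NPPC 0.0888. With the block and without replicate 6, NTNG1 gave 0.0389, NPPC 0.0534 and TGFA 0.00772. NTNG1 gave 0.00542 with the actin covariate and NPPC 0.0776 with array weights. With group means under the floor set to the floor, added after seeing the data, the response at 100 pM was 92.2%. The causes were not tested. Levels under the log2 floor of 4 limit what can be seen of dim genes.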

Other observations

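Across the 2 groups, deviations of replicate 1 at 100 pM from its group mean correlated best with those of replicate 2 at 1000 pM (r 0.33), and those of replicate 2 at 100 pM with replicate 1 at 1000 pM (r 0.30). The level of the poly-A spike-in control probe sets was 7.75 and 5.03 on replicates 1 and 2 at 100 pM, and 5.35 and 7.80 on replicates 1 and 2 at 1000 pM (log2). For replicates 3 to 6 the array of the same number was the best correlated one.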
